A study of Mus musculus with 6 samples.

Results

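The mitochondrial ribosomal protein genes were taken as the protein-coding rows of the deposited table whose symbol starts with Mrpl or Mrps followed by a number. This gave 78 genes of the 55487 rows, of which 21936 are protein-coding, and 77 of the 78 passed the filter on low counts and were tested among 15332 genes. Their RNA was measured in LSKs, the lineage-negative, Sca-1-positive and c-Kit-positive bone marrow cells in which hematopoietic stem and progenitor cells are found. The LSKs came from irradiated Tespa1+/+ mice (3 libraries) and irradiated Tespa1-/- mice (3 libraries), so exposure to radiation was shared by both groups, and the comparison asks how LSKs without Tespa1 differ after this stress. The mice were males 8 to 10 weeks of age on a C57BL/6 background, the null allele was germline, and LSKs were taken 13 days after 5.0 Gy given to the whole body. The wild-type animals were littermates per the labels. The labels number the replicates without saying whether a library was 1 mouse or a pool, so the p-values measure only the spread between these libraries, which may be technical.

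Mitochondria carry ribosomes of their own, built from a large and a small subunit. Their ribosomal RNAs are transcribed from mitochondrial DNA, whereas all of their proteins are encoded in the nucleus, translated in the cytosol and imported. The mitoribosome translates only the few proteins encoded by mitochondrial DNA, which are core subunits of the respiratory chain and of ATP synthase, and these proteins are assembled with partners made in the cytosol. Many mitoribosomal proteins have a homolog in the bacterial ribosome, and most of the others are classed here as mitochondria-specific. In hematopoietic stem cells mitochondrial activity is known to be kept low during quiescence and to rise on activation and differentiation.

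The total count was 12856630 to 30576981 per library. Tespa1, the targeted gene (chr10:130322870-130364111, GRCm38), gave 626, 1033 and 533 counts with the wild-type genotype and 261, 207 and 176 counts without Tespa1, a log2 difference of -1.23 ± 0.07 (SE; adjusted p = 7.0e-06 by edgeR), so reads on the gene remained in the null libraries. Kit, the gene for c-Kit, stood at 332 CPM in Tespa1+/+ and 169 CPM in Tespa1-/- LSKs (adjusted p = 2.1e-06 by edgeR). Ly6a, the gene for Sca-1, stood at 50.4 and 40.3 CPM with overlapping groups and did not pass (adjusted p = 0.109 by edgeR). With the gene-length offset described below both genes passed as lower in Tespa1-/- LSKs. Kit then had a log2 fold change of -0.48 and Ly6a of -0.56 (adjusted p = 4.3e-05 and 0.0159 by edgeR). Among genes of the lineage gate, Cd3e and Ly6g had at most 8 counts in any library. Itgam stood at 30.3 and 20.6 CPM and did not pass (adjusted p = 0.152, or 0.363 with the offset, by edgeR). Markers of other cell types moved with genotype. All 8 neutrophil markers rose, from a summed 20.9 to 23.6 CPM in Tespa1+/+ to 468 to 494 CPM in Tespa1-/- libraries, and all 5 tested of 7 erythroid markers rose, from 17.0 to 18.2 CPM to 42.8 to 47.3 CPM. Of 6 megakaryocyte markers 4 fell (121 to 128 CPM against 70.1 to 74.3 CPM), both tested of 6 T cell markers fell (3.30 to 3.57 CPM against 1.52 to 1.69 CPM), and of 8 B and plasma cell markers 3 rose and 4 fell (417 to 440 CPM against 378 to 394 CPM). Of 12 proliferation genes 5 rose and 3 fell (3485 to 3525 CPM against 3170 to 3231 CPM), and with the offset 9 rose and 1 fell. Over all tested genes 31.5% rose and 31.8% fell, or 36.3% and 22.2% with the offset. The part of these marker genes in the values below was not tested. In bulk RNA, a different mix of cells and a different amount of RNA per cell cannot be told apart.

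The promoters of the mitochondrial ribosomal protein genes held the letters of an ETS or a YY1 element at a larger share than promoters at large. RefSeq promoters of GRCm38.p6, reaching from 250 bases before to 50 bases after the start, were at hand for 69 of the 78 genes and gave 75 promoters. CCGGAAG, the core bound by ETS factors such as GABP, was present on either strand in 34.7% of them, against 17.7% of 12177 promoters of tested protein-coding genes and 8.86% of all 32851 promoters. AAGATGGC, the element of YY1, was present in 16% against 4.45% and 2.75%. The element of NRF1, a regulator of nuclear genes for mitochondrial proteins, reads GCGCA, any 1 base and GCGC in a row, and was present in 17.3% against 10.1% and 4.6%. CACGTG, the E-box bound by MYC and other factors, was present in 9.33% against 10% and 7.15%. At least 1 of these 4 motifs was in 62.7% of the members' promoters, 35.3% of those of tested protein-coding genes and 20.2% of all. These are matches of letters, not binding sites. The median log2 fold change of members with and without each motif was 0.71 and 0.63 for ETS, 0.64 and 0.68 for YY1, 0.61 and 0.68 for NRF1 and 0.69 and 0.65 for the E-box, which is also found at Mrpl37, the gene with the second smallest fold change. The gene with the largest fold change, Mrpl51, carries the ETS letters, Mrps18c, the second, carries the E-box beside the ETS letters on the other strand, Mrpl12, the member with the most counts, carries the NRF1 letters, and Mrps11, whose 5′ end overlaps that of Mrpl46 on the other strand, carries the YY1 letters. Motifs are in capitals, and each promoter is given on the strand of its gene, which is the plus strand in all 4.
Mrpl51, chr6:125191950-125192249, ETS: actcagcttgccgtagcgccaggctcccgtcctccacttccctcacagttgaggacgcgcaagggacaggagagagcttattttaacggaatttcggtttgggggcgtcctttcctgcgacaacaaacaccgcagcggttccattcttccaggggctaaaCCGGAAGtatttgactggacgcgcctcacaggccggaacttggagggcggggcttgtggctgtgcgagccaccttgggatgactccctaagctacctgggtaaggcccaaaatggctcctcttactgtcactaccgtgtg
Mrps18c, chr5:100798509-100798808, E-box then ETS: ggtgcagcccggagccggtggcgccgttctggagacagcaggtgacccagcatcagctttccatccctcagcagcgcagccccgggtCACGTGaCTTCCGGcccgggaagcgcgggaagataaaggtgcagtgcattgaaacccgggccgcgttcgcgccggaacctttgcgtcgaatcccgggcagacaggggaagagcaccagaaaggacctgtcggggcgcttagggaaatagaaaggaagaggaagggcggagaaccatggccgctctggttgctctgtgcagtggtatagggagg
Mrpl12, chr11:120484387-120484686, NRF1: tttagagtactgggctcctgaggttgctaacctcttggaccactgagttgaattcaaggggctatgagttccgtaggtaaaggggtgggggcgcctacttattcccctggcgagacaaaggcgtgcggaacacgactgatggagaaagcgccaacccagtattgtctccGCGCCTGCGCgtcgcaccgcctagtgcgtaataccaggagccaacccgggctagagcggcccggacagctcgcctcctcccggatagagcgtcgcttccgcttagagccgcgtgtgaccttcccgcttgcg
Mrps11, chr7:78782881-78783180, YY1: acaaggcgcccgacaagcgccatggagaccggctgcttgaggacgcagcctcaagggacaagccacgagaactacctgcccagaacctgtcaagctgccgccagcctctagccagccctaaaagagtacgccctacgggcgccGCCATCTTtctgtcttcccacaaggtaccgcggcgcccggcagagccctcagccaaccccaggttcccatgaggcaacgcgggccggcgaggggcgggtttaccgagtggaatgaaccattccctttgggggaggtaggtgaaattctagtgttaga

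Mitochondrial ribosomal protein genes were higher in Tespa1-/- than in Tespa1+/+ LSKs almost without exception. Of the 77 tested, 75 rose, none fell and 2 did not pass an adjusted p of 0.05 (edgeR quasi-likelihood test), where 31.5% of all tested genes rose and 31.8% fell. With a fold over 1.5 required as well, 47 rose and none fell, against 14% and 19.2% of all genes. When the fold itself was tested against 1.5 (glmTreat), 23 passed, against 6.65% of all genes. The median log2 fold change of the 77 genes was 0.67 (quartiles 0.49 and 0.77, range 0.22 to 1.05), a median fold of 1.59, against 0.00 over all genes tested. The fold change was above 0 for all 77, against 50% of all genes. The groups did not overlap for 76 genes, with each Tespa1-/- library above each Tespa1+/+ library, against 34.5% of all genes. The exception was Mrps21.

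The levels summed over the members were close within each genotype. They came to 3091, 3151 and 3111 CPM in the Tespa1+/+ libraries and 4746, 4913 and 4772 CPM in the Tespa1-/- libraries, where CPM is the count scaled to a common library size with TMM factors. The groups were far apart relative to the spread inside them, with means of 3118 ± 30.4 and 4810 ± 90.0 CPM (SD, n = 3) and a ratio of 1.54. As a share of all counts, the members took 0.323% ± 0.003 in Tespa1+/+ and 0.465% ± 0.009 in Tespa1-/- LSKs (SD, n = 3). On the deposited FPKM scale, which divides by a length that is not given, the sum rose from 1102 ± 16.2 to 1603 ± 33.2, a ratio of 1.45. The FPKM of all genes together also differed, 351228 in Tespa1+/+ against 432674 in Tespa1-/- LSKs, a ratio of 1.23, so that as a share of all FPKM the members rose from 0.314% to 0.370%, a ratio of 1.18.

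**Figure D1:**
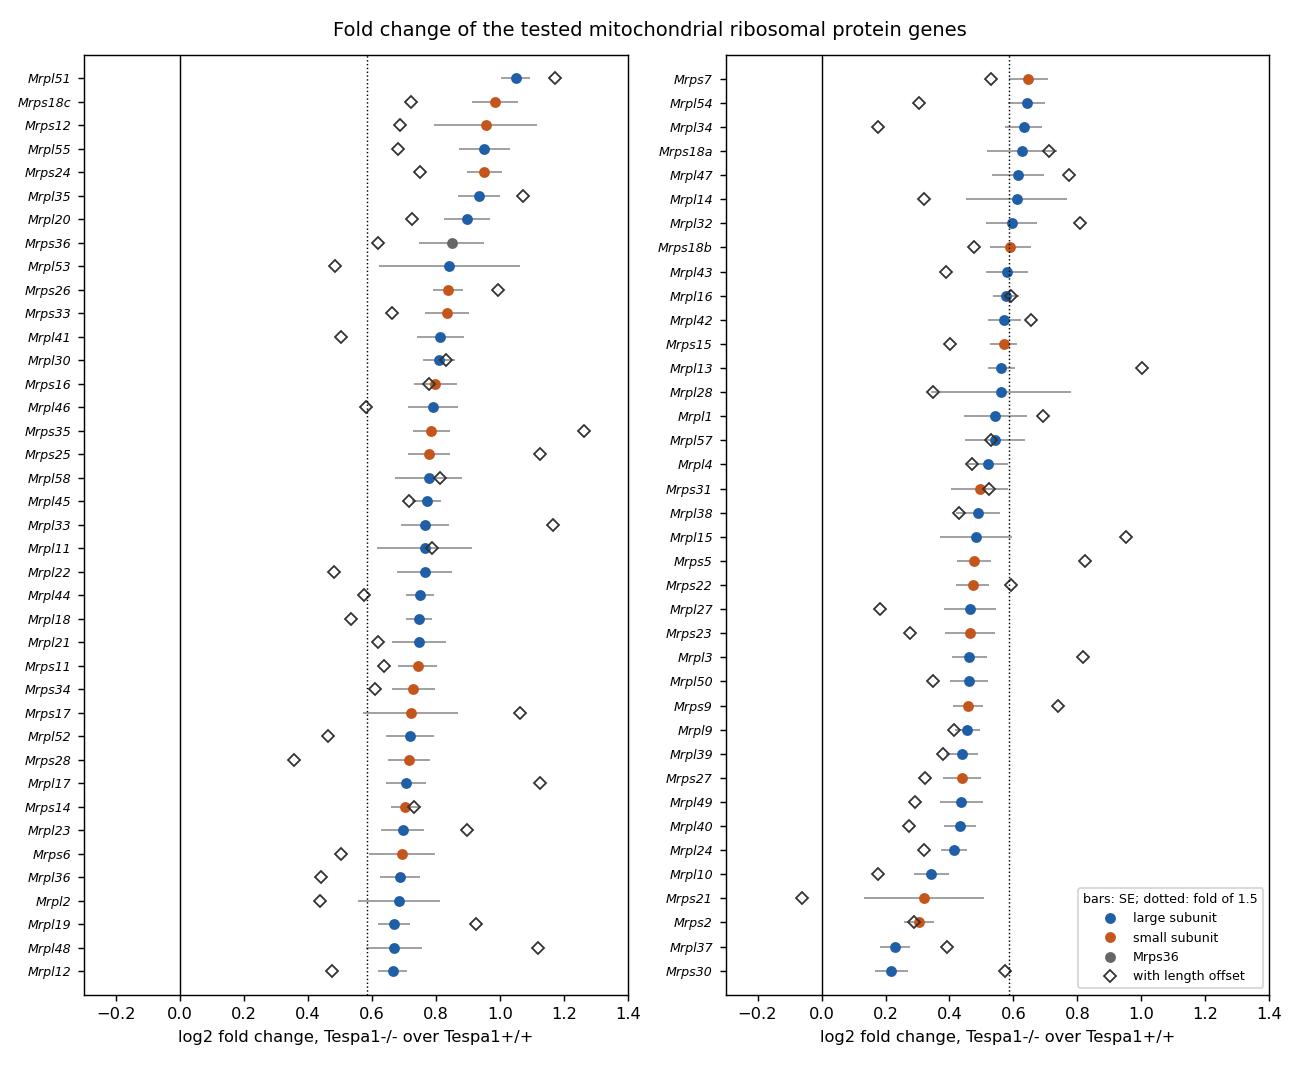
Log2 fold change (horizontal axis) of each of the 77 tested mitochondrial ribosomal protein genes, ordered by size, with filled points for the fit on counts, bars for its SE, colours for the subunit and open diamonds for the fit with a gene-length offset; the dotted line marks a fold of 1.5. All filled points lie above 0, from 0.22 for Mrps30 to 1.05 for Mrpl51, and 76 of the 77 diamonds do, the exception being Mrps21 at -0.06.

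Both subunits rose. Of 51 genes for proteins of the large subunit, 50 rose (median log2 fold change 0.63), and of 25 tested genes for the small subunit, 24 rose (median 0.71). The summed level of the large subunit genes went from 2180 ± 15.7 to 3336 ± 67.6 CPM (SD, n = 3) and that of the small subunit genes from 930 ± 18.1 to 1460 ± 22.9 CPM. The ratio of the sums was 2.35 ± 0.04 in Tespa1+/+ and 2.29 ± 0.01 in Tespa1-/- LSKs, with libraries from 2.31 to 2.38 and from 2.27 to 2.30, so the groups did not overlap in this ratio, although their means differed only by a factor of 0.974. The median log2 fold change was 0.65 over the 45 tested genes with a bacterial homolog, of which 43 rose. It was 0.64 over the 29 genes classed as mitochondria-specific, of which all 29 rose. Mrpl55, Mrps28 and Mrps36 were put in neither class, and all 3 rose.

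In the large subunit the largest change was that of Mrpl51, a protein found only in mitochondria (ENSMUSG00000030335, chr6:125191801-125196269). It stood at 53.5, 51.8 and 49.5 CPM in the Tespa1+/+ libraries and at 104, 109 and 108 CPM in the Tespa1-/- libraries. This is a fold of 2.07, or 1.05 ± 0.05 on the log2 scale (SE, adjusted p = 2.7e-06). No Tespa1-/- library came near the Tespa1+/+ range, and the ETS letters shown above start 90 bases before its RefSeq start. Mrpl35, with a bacterial homolog (chr6:71812997-71826969), had 26.7, 23.6 and 26.3 CPM against 49.4, 47.0 and 49.6 CPM, a log2 fold change of 0.94 ± 0.07 (SE, adjusted p = 2.0e-05). Mrpl55 (chr11:59202486-59206134) had 11.8, 12.2 and 11.9 CPM against 22.9, 25.1 and 21.6 CPM, a log2 fold change of 0.95 ± 0.08 (SE, adjusted p = 4.6e-05). Mrpl20, whose bacterial homolog binds ribosomal RNA early in assembly (chr4:155802878-155809975), had 54.1, 49.4 and 51.1 CPM against 87.2, 97.1 and 104 CPM, a log2 fold change of 0.90 ± 0.07 (SE, adjusted p = 3.7e-05). In these 3 genes too the lowest Tespa1-/- library lay well above the highest Tespa1+/+ library.

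**Figure D2:**
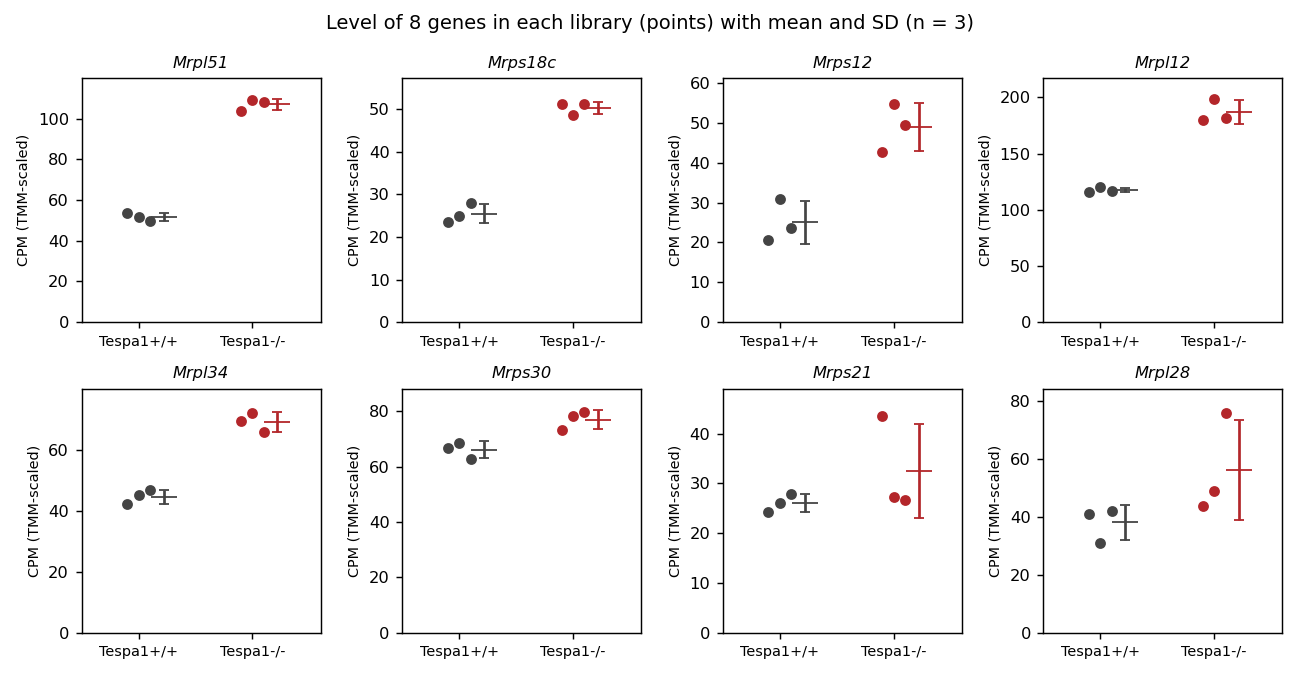
Level in CPM, scaled with TMM factors, of 8 genes in each of the 3 Tespa1+/+ and 3 Tespa1-/- libraries (points), with the mean and SD of each group (n = 3) beside them. The groups are apart for Mrpl51, Mrps18c, Mrps12, Mrpl12, Mrpl34 and Mrps30, overlap for Mrps21, where 1 Tespa1-/- library stands at 43.4 CPM, and are separated by little for Mrpl28, where 1 Tespa1-/- library stands at 76.1 CPM.

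In each of 3 functional regions of the large subunit every gene rose. The stalk, which recruits translation factors, is represented by 5 genes, all of which rose (median log2 fold change 0.67). Mrpl12, the stalk protein that contacts those factors (chr11:120484613-120489065), stood at 116, 120 and 117 CPM in Tespa1+/+ and at 180, 199 and 182 CPM in Tespa1-/- LSKs, a log2 fold change of 0.67 ± 0.05 (SE, adjusted p = 2.0e-05). Mrpl10, which anchors it to the ribosome, rose less, from 50.6 ± 3.05 to 64.2 ± 0.97 CPM (SD, n = 3), a log2 fold change of 0.34 ± 0.05 (SE, adjusted p = 0.00109). The other 3 stalk genes were Mrpl11 at 0.77, Mrpl53 at 0.84 and Mrpl54 at 0.64. All 6 genes for proteins that line the exit tunnel of the nascent chain or surround its opening rose (median 0.70). Mrpl45, which lies at the tunnel exit facing the inner membrane, had a log2 fold change of 0.77 ± 0.04 (SE, adjusted p = 8.2e-06), while Mrpl24 was the lowest of them at 0.41 ± 0.04 (adjusted p = 8.8e-05). All 7 genes of the central protuberance, the crown of the subunit that faces the small subunit, rose (median 0.67). They included Mrpl58, a peptidyl-tRNA hydrolase that became a structural part of the mitoribosome, which rose from 15.0, 19.0 and 15.4 CPM to 27.8, 29.6 and 27.6 CPM, a log2 fold change of 0.78 ± 0.10 (SE, adjusted p = 4.8e-04). These 3 groupings were written after the values were known.

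The 3 Mrps18 genes, paralogs that all descend from 1 bacterial protein, all rose. The third of them, Mrps18a, sits in the large subunit despite its name. Mrps18c (ENSMUSG00000016833, chr5:100798627-100804471) stood at 23.6, 24.9 and 27.9 CPM in Tespa1+/+ and at 51.1, 48.7 and 51.1 CPM in Tespa1-/- LSKs, a log2 fold change of 0.99 ± 0.07 (SE, adjusted p = 2.5e-05). Mrps18b, also in the small subunit (chr17:35910379-35916389), had 33.2, 34.9 and 36.6 CPM against 55.9, 51.9 and 49.7 CPM, a log2 fold change of 0.59 ± 0.06 (SE, adjusted p = 1.8e-04). Mrps18a (chr17:46110986-46128910), had 35.9, 32.3 and 26.1 CPM against 49.3, 48.6 and 48.0 CPM, a log2 fold change of 0.63 ± 0.11 (SE, adjusted p = 0.00179). The groups were apart in all 3, and the differences between the paralogs were not tested. Set against a fold of 1.5 (glmTreat), Mrps18a and Mrps18b no longer passed (adjusted p = 0.493 and 0.648).

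Mrps12, the protein of the decoding centre whose bacterial homolog carries streptomycin resistance mutations (chr7:28739641-28741820), varied more among libraries than most members. It stood at 20.6, 31.0 and 23.7 CPM against 42.7, 54.8 and 49.4 CPM, with the second library highest in each group, and rose by a log2 fold change of 0.96 ± 0.16 (SE, adjusted p = 0.00155). Mrps24 (chr11:5703983-5715680) had 32.7, 31.8 and 29.6 CPM against 61.7, 61.7 and 58.7 CPM, a log2 fold change of 0.95 ± 0.06 (SE, adjusted p = 8.6e-06). Mrps36 carries the family name but is known as a part of the 2-oxoglutarate dehydrogenase complex. It rose from 8.10 ± 0.76 to 14.5 ± 0.98 CPM (SD, n = 3), a log2 fold change of 0.85 ± 0.10 (SE, adjusted p = 2.8e-04).

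At the other end, Mrps30, a large subunit protein found only in mitochondria (chr13:118378381-118387252), stood at 66.8, 68.6 and 62.8 CPM in Tespa1+/+ and at 73.2, 78.1 and 79.6 CPM in Tespa1-/- LSKs. It rose by a log2 fold change of 0.22 ± 0.05 (SE, adjusted p = 0.00848), and the call was lost when libraries were scaled by total counts (adjusted p = 0.0875), a scaling that moved the median of all genes to -0.10. Mrpl37 had 74.2, 76.2 and 79.0 CPM against 93.7, 86.4 and 88.7 CPM, a log2 fold change of 0.23 ± 0.05 (SE, adjusted p = 0.00373). Mrps2, with a bacterial homolog, had 50.7, 52.1 and 53.3 CPM against 62.2, 64.0 and 66.8 CPM, a log2 fold change of 0.30 ± 0.05 (SE, adjusted p = 9.3e-04). Mrpl24, Mrpl40 and Mrpl49 followed Mrpl10 with log2 fold changes of 0.41, 0.43 and 0.44. The changes in these genes were small, yet their libraries did not overlap.

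The 2 genes that did not pass each had 1 Tespa1-/- library apart from the other two. Mrps21 (chr3:95862634-95871519) stood at 24.3, 26.1 and 28.0 CPM in Tespa1+/+ and at 43.4, 27.2 and 26.7 CPM in Tespa1-/- LSKs, a log2 fold change of 0.32 ± 0.19 (SE, adjusted p = 0.175). Mrpl28 (chr17:26123500-26126613), named here after its values were seen, stood at 41.2, 31.1 and 42.2 CPM against 43.7, 49.1 and 76.1 CPM, a log2 fold change of 0.56 ± 0.22 (SE, adjusted p = 0.0569). It passed without the first Tespa1-/- library (adjusted p = 0.0264). The only gene not tested was Mrps10 (chr17:47368887-47381417), which held 10, 10 and 7 counts in Tespa1+/+ LSKs against 11, 10 and 7 in Tespa1-/- LSKs. The other 77 had at least 36 counts in every library, so Mrps10 stood alone at such low counts. With 7 to 11 counts per library its level is imprecise, and the cause of the low counts was not tested.

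The genes differed far more among themselves than between genotypes. On the FPKM scale, the level of the 77 genes had a median of 11.04 in Tespa1+/+ and 16.2 in Tespa1-/- LSKs, and within a library the highest gene was 38.6 to 46.6 times the lowest. The order of genes depends on the length behind the FPKM. The implied length was 13836, 11671 and 8122 bases for Mrps17, Mrpl48 and Mrpl58, against 6490, 8152 and 3332 bases of annotated exon. For Mrpl34 both were 607. In CPM, Mrps17, Mrpl48 and Mrpl34 stood at 25.4, 22.4 and 44.6 in Tespa1+/+ LSKs. Mrpl34 was highest at 76.1 ± 3.93 and 110 ± 5.09 FPKM (SD, n = 3), followed by Mrpl12 at 65.6 ± 0.99 and 97.0 ± 5.64 FPKM and Mrps28 at 50.1 ± 3.39 and 77.0 ± 3.47 FPKM. These 3 genes kept the same order in both groups, and their ranges of mean ± SD were apart within each group. Lowest over all 6 libraries were Mrps17 at 1.90 ± 0.17 and 2.93 ± 0.61 FPKM, Mrpl48 at 1.99 ± 0.03 and 2.95 ± 0.34 FPKM and Mrpl58 at 2.10 ± 0.28 and 3.37 ± 0.13 FPKM, which lay within their spread of each other in Tespa1+/+ LSKs. In Tespa1+/+ LSKs alone Mrpl53, at 2.05 ± 0.50 FPKM, lay below Mrpl58. Their log2 fold changes were 0.72, 0.67 and 0.78, and those of the 3 highest genes 0.63, 0.67 and 0.72. Over the 77 genes the Spearman correlation of the mean levels in both groups was 0.98, and that of fold change with level was -0.07. Genes measured in the same libraries are not independent points, so both values are descriptions.

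**Figure D3:**
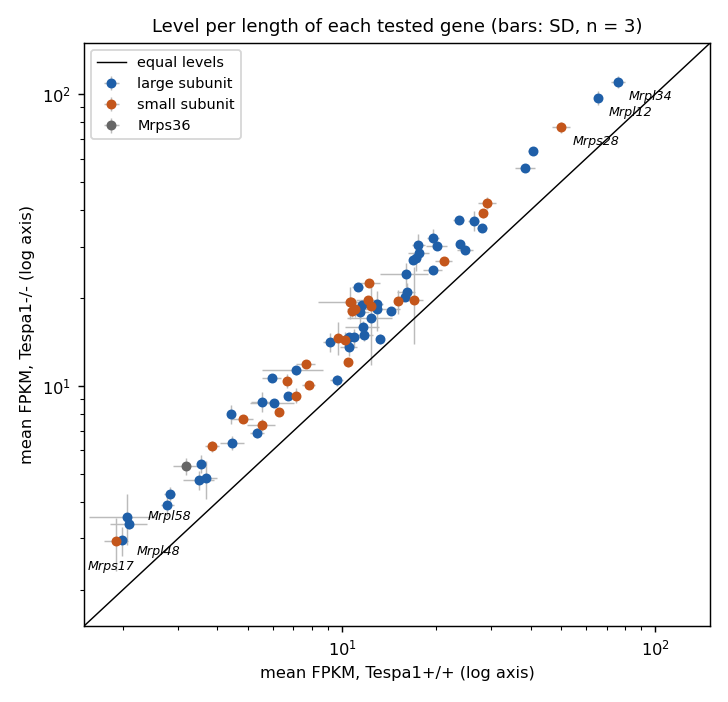
Mean FPKM of each of the 77 tested genes in Tespa1+/+ (horizontal) and Tespa1-/- LSKs (vertical), both on log axes, with SD (n = 3) as bars and the subunit as colour. All points lie above the line of equal levels, and the order of the genes is nearly the same in both groups. The FPKM were drawn as deposited. Summed over all genes they were 1.23 times as high in Tespa1-/- LSKs, so the line does not mark an equal share of all FPKM. The median log2 fold change over all genes in the limma fit on log2(FPKM + 1) was -0.016.

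Gene length moved with the fold change over all genes. Across 15320 tested genes the Spearman correlation of log2 fold change with union exon length (the bases covered by any annotated exon of a gene) was -0.47, short genes being higher in Tespa1-/- LSKs. The mitochondrial ribosomal protein genes are short, with a median of 2255 bases (607 to 8631) against 3664 bases over all genes, and 53 of the 77 were shorter than that. Within the 77 genes the correlation with length was -0.18. With each library's trend on length taken out as an offset in the fit, 71 of the 77 rose and none fell, against 36.3% and 22.2% of all genes, and 39 rose with a fold over 1.5, against 11.7%. The median log2 fold change of the members was then 0.59 (range -0.06 to 1.26), against 0.11 over all genes, and 76 of the 77 values lay above 0, against 58% of all genes. The members that no longer passed were Mrpl14, Mrpl27, Mrpl34 and Mrpl53, with log2 fold changes of 0.32, 0.18, 0.18 and 0.49 and adjusted p of 0.124, 0.0886, 0.0529 and 0.11, and Mrps21 turned to -0.06 (adjusted p = 0.791). With the length implied by the deposited counts and FPKM as the offset, 75 rose, 44 of them with a fold over 1.5, the median was 0.66 and no member lost its call. The 4 that lost the call with the union length have 949, 985, 607 and 790 bases of exon, and Mrpl34 is also the member highest in FPKM.

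The offset changed short and long members in opposite ways. With it, the Spearman correlation of the members' log2 fold change with union exon length was 0.68, against -0.18 without it. Over all tested genes the correlation with the offset was -4.4e-04. The order of the members with the offset therefore goes with their length. In the 25 shortest genes (607 to 1644 bases) the median log2 fold change went from 0.72 to 0.47 with the offset, in the 27 of the middle (1664 to 3291 bases) from 0.57 to 0.52, and in the 25 longest (3332 to 8631 bases) from 0.63 to 0.90. All 25 of the longest genes rose in both fits. With the offset the 3 largest changes were those of Mrps35, a small subunit protein found only in mitochondria, at 1.26 (adjusted p = 6.5e-06), Mrpl51 at 1.17 (adjusted p = 3.9e-06) and Mrpl33 at 1.17 (adjusted p = 2.1e-05). Without it they stood at 0.79, 1.05 and 0.77. Their union exon lengths were 8631, 4043 and 7326 bases, all among the 25 longest. Mrps35 had 37.3, 36.5 and 33.9 CPM against 59.0, 63.7 and 63.4 CPM, and Mrpl33 had 59.6, 51.9 and 53.3 CPM against 94.0, 100 and 86.0 CPM. Neither gene had overlapping groups. Without the offset, the correlation of fold change with the implied length over the members was -0.09.

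**Figure D4:**
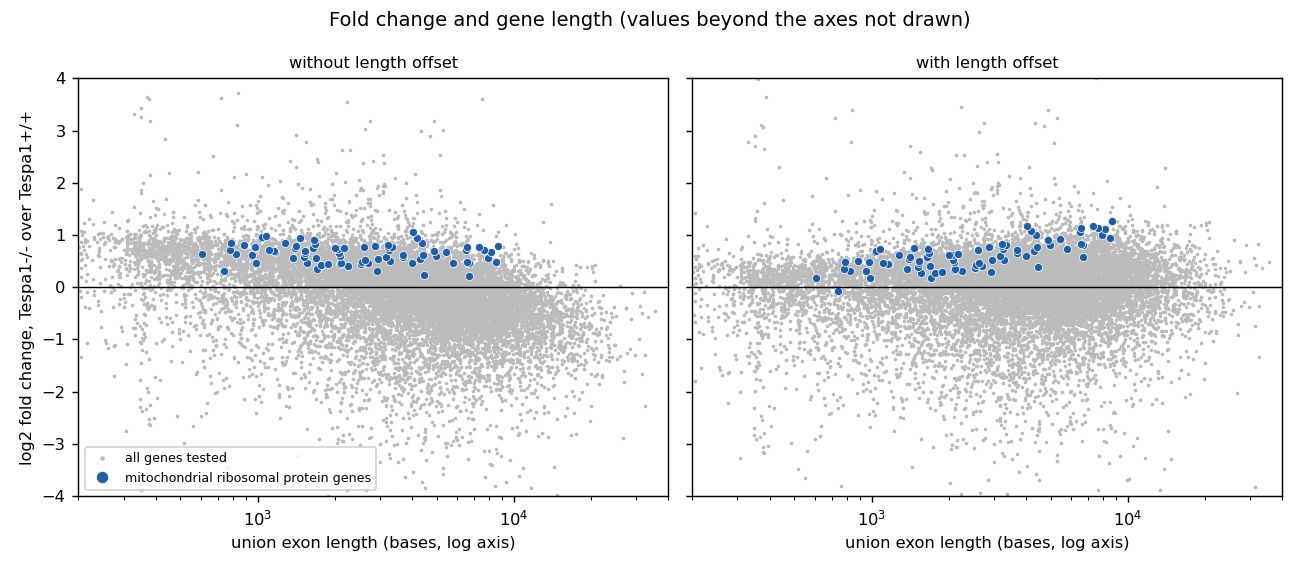
Log2 fold change (vertical) against union exon length in bases (horizontal, log axis) for all tested genes (grey) and the 77 mitochondrial ribosomal protein genes (blue), without (left) and with (right) the length offset. The cloud of all genes slopes down on the left and lies level on the right, and the blue points lie above 0 on both sides, except Mrps21 at -0.06 on the right.

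The genes lie on 17 chromosomes, with 11 on chromosome 11 and 8 on chromosome 17. On all 17 the median log2 fold change of the tested members was above 0, which follows from all 77 values being above 0. Of the 78, 33 share exonic bases with another annotated gene, 28 of them with a gene on the opposite strand and 8 with a gene on the same strand. Whether the counting used the strand is not given in the sources used here, so reads in shared bases may have been assigned to either gene. All 33 rose (median 0.67), and of the 44 tested genes without such bases 42 rose (median 0.63). Mrpl53 shares 695 of its 790 bases with Gm42688 and has the lowest counts among tested members, and Mrps34 shares 763 of its 2064 bases with Nme3 and 1309 with Mapk8ip3, so the values of both are uncertain. Mrps25 rose by 0.78 although it shares 4590 bases with Nr2c2, which fell by 0.89 on the log2 scale. Mrps24 shares 226 bases with Urgcp (log2 fold change -0.04) and Mrps18c shares 250 bases with Gm43511 (-0.69). Mrps11 and Mrpl46, a small and a large subunit gene on opposite strands that overlap at their 5′ ends and share 173 bases, had log2 fold changes of 0.74 and 0.79. The promoter of Mrps11 shown above lies inside the annotated span of Mrpl46.

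Processed pseudogenes named after 4 members also collected reads, and these members are less certain for that reason. Pseudogenes under other names were not searched for, so other members may be affected as well. Mrpl23-ps1 had a mean of 21.9 CPM in Tespa1+/+ and 34.6 CPM in Tespa1-/- LSKs, more than Mrpl23 itself (17.4 and 28.2 CPM), and both had a log2 fold change of about the same size, 0.66 and 0.70. Mrps36-ps1 (7.08 and 13.8 CPM) and Mrps36-ps2 (4.47 and 8.07 CPM) together exceeded Mrps36. Mrpl48-ps (12.6 and 16.4 CPM) and Mrpl27-ps (4.81 and 7.55 CPM) stayed below their parent genes. Mrps36-ps3 had no count in any library.

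Other genes of the mitochondrial translation apparatus moved by smaller amounts, by their medians, than the ribosomal proteins. Of 5 mitoribosomal proteins with other names 4 rose. They were Aurkaip1 at 0.78, Chchd1 at 0.65, Gadd45gip1 at 0.55 and Dap3 at 0.43 on the log2 scale, and Ptcd3 fell by 0.21 (79.3 ± 2.43 to 68.4 ± 1.14 CPM, SD, n = 3, adjusted p = 0.00286). With the length offset Ptcd3 turned to 0.16 (adjusted p = 0.0142). Of 26 tested genes for assembly of the mitoribosome and modification of its RNA, 20 rose and none fell (median 0.42, or 0.51 with the offset). Mrm2, Mrm3 and Ddx28, which methylate or remodel the large ribosomal RNA, had log2 fold changes of 0.90, 0.66 and 0.65, and Ngrn had 0.69. Of 15 translation factors 8 rose and none fell (median 0.23, or 0.51 with the offset). Mtif3, an initiation factor, rose by 0.88 on the log2 scale, Tsfm, an elongation factor, by 0.70 and Gfm1, also an elongation factor, by 0.40. Mtrf1, a release factor, stood at 0.50 (adjusted p = 0.0474) with overlapping libraries, and its call was lost with the offset (0.43, adjusted p = 0.0887). Of 17 mitochondrial aminoacyl-tRNA synthetases 6 rose and 2 fell (median 0.12), a share near the 31.5% of all genes that rose, and with the offset 12 rose and none fell (median 0.29), against 36.3%. Yars2 and Cars2 stood at 0.45 and 0.42, and Lars2 and Mars2 at -0.38 and -0.36. With the offset Lars2 and Mars2 turned to 0.22 and 0.24.

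Genes that maintain or are encoded by mitochondrial DNA were mixed in the fit on counts. Of 10 genes for transcription and replication of mitochondrial DNA 3 rose and 1 fell (median 0.05), close to the 31.5% of all genes that rose, and with the length offset 5 rose and none fell (median 0.18), against 36.3%. Mterf1a, Ssbp1 and Tfam, the last of which packages mitochondrial DNA, rose by 0.74, 0.40 and 0.33, and Polg, the DNA polymerase, fell by 0.33 on the log2 scale but turned to 0.24 with the length offset. Both mitochondrial ribosomal RNAs rose, mt-Rnr1 by 0.43 and mt-Rnr2 by 0.41 (0.15 and 0.23 with the offset), although the libraries were selected for poly-A RNA. Of the 13 mitochondrially encoded mRNAs 7 rose and 3 fell (median 0.15), and with the offset 3 rose and 7 fell (median -0.13), so the direction of this group depends on that setting. Among them mt-Nd3 and mt-Co2 stood at 0.71 and 0.51, and mt-Nd5 and mt-Nd4l at -0.57 and -0.84.

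The sets nearest to the members were the other large families of short, widely expressed genes. Of 84 tested genes with cytosolic ribosomal protein symbols, 78 rose and 1 fell (median log2 fold change 0.63, or 0.52 with the length offset). Rps7 and Rpl38 stood at 0.93 each. The furthest from 0 were the copies Rpl39l at 3.11, counted 6, 5 and 0 times against 17, 24 and 25, and Rpl3l at -2.01, counted 24, 38 and 21 times against 9, 2 and 3. Of 73 nuclear genes for oxidative phosphorylation subunits, which work together with the products of the mitoribosome, 68 rose and none fell, with a median of 0.70 (0.52 with the offset). Uqcrq, Ndufc1, Atp5g1 and Ndufs6 stood at 1.06, 1.03, 1.01 and 0.998. The median of the mitochondrial ribosomal protein genes, 0.67, lay between those of these sets, and with the offset its 0.59 lay above both. The members are also the longest of the 3 sets, with a median union exon length of 2255 bases. The cytosolic ribosomal protein genes had 1754.5 bases and the oxidative phosphorylation genes 1718. Among the members, values with the offset rose with length. Differences between any of these sets were not tested.

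**Figure D5:**
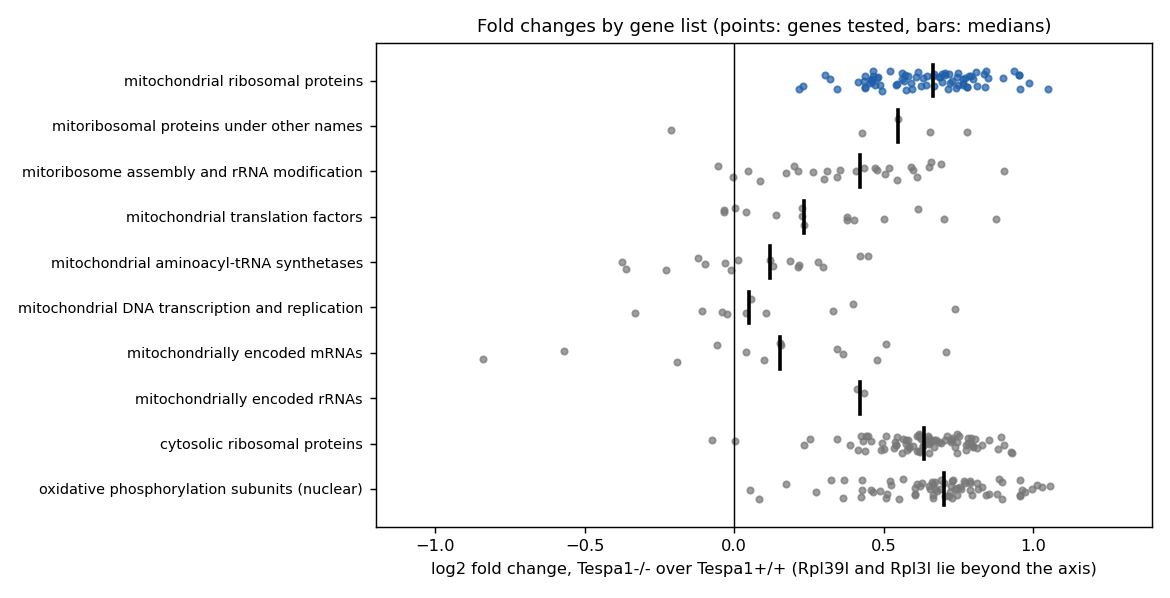
Log2 fold change (horizontal) of each tested gene in the mitochondrial ribosomal protein set (blue) and in 9 related lists (grey), with bars at the medians; vertical scatter within a row carries no value. The medians run from 0.67 for the members, 0.63 for cytosolic ribosomal proteins and 0.70 for oxidative phosphorylation subunits down to 0.12 for aminoacyl-tRNA synthetases and 0.05 for mitochondrial DNA transcription and replication.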

How the data were processed

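RNA sequencing of sorted LSKs covered 3 Tespa1+/+ and 3 Tespa1-/- libraries, grouped by their titles. Per the labels, total RNA was selected for poly-A RNA and made into stranded paired-end libraries. The submitters' processing notes name CASAVA 1.8, HISAT2, StringTie, edgeR and GRCm38; the other versions and the strand setting of the counting are not given in the sources used here. The authors deposited raw counts per gene, which were tested, and FPKM values, which were used for levels and in alternatives. The length behind the FPKM is not given. The value implied by counts and FPKM was 13836 bases for Mrps17, against a union exon length of 6490 bases. Coordinates of all 78 genes were those of GENCODE M21.

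The deposited counts entered the quasi-likelihood test of edgeR 4.0.16 under R 4.3.3 (two-sided, all 6 libraries, no covariates) after filterByExpr and TMM scaling. P-values were adjusted by Benjamini-Hochberg over all 15332 genes. Log2 fold changes are Tespa1-/- over Tespa1+/+, computed here from the deposited counts, and the SE was derived from the F statistic. The length offset was a loess curve (span 0.5) of each library's log2 CPM deviation on log2 union exon length. Alternatives used RLE factors, total counts, other filters (none, or at least 10 counts in every library), DESeq2 1.42.0, limma 3.58.1 on log2(FPKM + 1) and log2(FPKM + 0.1) with a minimum of 1 FPKM in 3 libraries, and on the former also without it, glmTreat, a replicate block and leaving out each library. Fits were tested on simulated data. The common biological coefficient of variation was 0.11. Reads carry no molecular identifiers, so counts are not independent molecules.

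The members, lists, subunit roles and tests were chosen with earlier results of these data known. Named were the 8 members with the largest and the 8 with the smallest fold change, members not tested, the 3 highest and 3 lowest in FPKM, the 3 largest with the offset, Mrpl12, Mrps12, Mrps18a, Mrps18b, Mrps18c, Mrps36 and Mrpl58, the 5 mitoribosomal proteins with other names, up to 4 called genes of each other list with the largest fold change, and Tespa1. Members named beyond these stand in a group described as a whole, lost a call, share bases or have a pseudogene. One marker gene of the lists is not reported here.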

Additional observations from a re-analysis of the deposited data

How the results depend on the processing

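The count of members that rose stayed at 71 to 76 with other factors, filters and tools, with the length offsets, and without any 1 library (75 to 76), and none fell in any fit. Against a fold of 1.5 (glmTreat) 23 rose, by construction of a stricter test, and among members without shared exonic bases 42 of 44 did, fewer being counted. The count with a fold over 1.5 was 35 with total counts, 23 with glmTreat and 46 to 50 without 1 library. With limma it was 22 on log2(FPKM + 1), with or without its filter, and 33 on log2(FPKM + 0.1). The median log2 fold change was 0.64 to 0.69 without 1 library, 0.57 with total counts, 0.49 and 0.54 with limma at pseudocounts of 1 and 0.1 (0.49 without its filter) and 0.59 with the length offset. Total counts moved the median of all genes by -0.10, and relative to it the members stayed at 0.67. Mrps18a and Mrps18b, at 0.63 and 0.59, lost their calls under glmTreat. The ratio of summed levels was 1.45 on FPKM and 1.44 on total-count CPM, and the correlation with length was -0.094 with the implied length.

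The calls of members that changed under other settings were those of Mrpl28, which passed without a filter (adjusted p = 0.0302), with DESeq2 (0.0112), with the replicate block (0.0340) and without Tespa1-/- replicate 1 (0.0264), and of Mrps30, which was lost with total counts (0.0875) and limma (0.0980 and 0.0981, and 0.145 without the filter, where Mrpl14, Mrpl15 and Mrpl37 were lost as well), beside those given for the length offset and glmTreat. Same-numbered libraries deviated together by correlations of 0.0459, 0.0107 and 0.0595, and different-numbered ones by -0.048 to 0.0038. All were small and the same-numbered ones were the larger, so whether the numbers pair the libraries was not settled. With the replicate block 76 members rose.

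Directions turned in the list for mitochondrial DNA transcription and replication (median -0.052 with total counts, -0.044 with limma at a pseudocount of 1, with or without the filter, -0.052 at 0.1) and in mitochondrially encoded mRNAs (-0.13 and -0.10 with the union and implied length offsets). With those 2 offsets Lars2 turned to 0.22 and 0.13, Mars2 to 0.24 and 0.0061, Polg to 0.24 and 0.26 and Ptcd3 to 0.16 and 0.12, and Mrps21 turned to -0.062 with the union length. The cause was not tested. Mrps10 and Mrpl53 hold the fewest counts, and their values are the least precise.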
